A study of Mus musculus with 6 samples.

Results

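The 10 genes described here encode the proteins that carry arginine into macrophages, split it or make it, and turn its products into polyamines and creatine. They are Slc7a2, Slc7a1, Arg1, Arg2, Ass1, Gatm, Odc1, Azin1, Sat1 and Smox. They were taken by symbol from a table of 25124 genes, in which each was found as 1 entry with 1 copy in the annotation, and all 10 passed the filter on low values, Arg2 through its M2 libraries. The libraries came from bone marrow-derived macrophages (BMDM), which are grown from mouse marrow in macrophage colony-stimulating factor (M-CSF). All mice were C57BL/6 wild type and 8 weeks old, and all cells had 7 days of culture in 20 ng/ml M-CSF. The M0 group (n = 3 libraries) stayed in 20 ng/ml M-CSF, and the M2 group (n = 3 libraries) received interleukin-4 (IL-4) at 10 ng/ml on top of the same M-CSF. RNA was taken after 4 h of this treatment. Whether the 3 libraries of a group came from separate animals or cultures is not given in the sources used here, so that p-values measure only the spread between these libraries.

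Arginine enters macrophages mainly through the cationic amino acid transporters CAT1 (Slc7a1) and CAT2 (Slc7a2). Inside the cell it can be split by arginase into ornithine and urea, oxidised by nitric oxide synthase, or used by Gatm to begin creatine synthesis. Ornithine decarboxylase (Odc1) turns ornithine into putrescine, from which spermidine and spermine are built, while Sat1 and Smox act in the reverse direction by acetylating and oxidising them. IL-4 is the classical inducer of arginase in mouse macrophages, and Arg1 is widely used as a marker of alternative activation.

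RefSeq promoter sequences (build GRCm38.p6, which is mm10) were found for 6 of the 10 genes: Slc7a1, Ass1, Gatm, Odc1, Sat1 and Smox. The 250 bases before the transcript start are printed for 2 genes that rose with IL-4 (Sat1, Gatm) and 3 that fell (Odc1, Smox, Slc7a1), so that the start regions of genes moving in opposite directions can be compared. Each runs 5′ to 3′ in the direction of the gene, and its last base lies next to the first base of the transcript counted in the table. Capitals mark exact matches, on either strand, to 5 short motifs: the GC box GGGCGG, the CCAAT box CCAAT, the E-box CACGTG and the STAT spacings TTCNNNGAA and TTCNNNNGAA.
Sat1 (chrX:155216450-155216699, minus strand): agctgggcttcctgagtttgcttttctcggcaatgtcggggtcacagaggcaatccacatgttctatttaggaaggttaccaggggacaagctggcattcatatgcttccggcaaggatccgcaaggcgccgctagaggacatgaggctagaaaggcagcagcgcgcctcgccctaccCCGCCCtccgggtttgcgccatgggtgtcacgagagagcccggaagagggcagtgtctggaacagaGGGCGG
Gatm (chr2:122611278-122611527, minus strand): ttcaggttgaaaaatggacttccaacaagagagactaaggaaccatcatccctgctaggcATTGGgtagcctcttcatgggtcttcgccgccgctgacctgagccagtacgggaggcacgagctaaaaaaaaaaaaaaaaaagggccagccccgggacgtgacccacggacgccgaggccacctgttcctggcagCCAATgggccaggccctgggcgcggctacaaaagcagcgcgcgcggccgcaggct
Odc1 (chr12:17544623-17544872, plus strand): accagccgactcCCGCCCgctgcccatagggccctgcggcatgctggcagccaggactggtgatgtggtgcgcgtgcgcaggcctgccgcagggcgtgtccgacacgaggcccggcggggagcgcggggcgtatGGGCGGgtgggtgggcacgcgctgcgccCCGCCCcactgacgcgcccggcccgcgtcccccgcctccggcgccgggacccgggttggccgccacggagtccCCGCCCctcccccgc
Smox (chr2:131491612-131491861, plus strand): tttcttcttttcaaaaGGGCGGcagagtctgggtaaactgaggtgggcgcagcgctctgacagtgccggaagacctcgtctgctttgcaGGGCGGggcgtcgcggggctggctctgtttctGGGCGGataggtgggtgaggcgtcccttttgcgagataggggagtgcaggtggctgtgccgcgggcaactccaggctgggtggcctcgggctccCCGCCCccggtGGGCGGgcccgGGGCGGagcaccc
Slc7a1 (chr5:148392816-148393065, minus strand): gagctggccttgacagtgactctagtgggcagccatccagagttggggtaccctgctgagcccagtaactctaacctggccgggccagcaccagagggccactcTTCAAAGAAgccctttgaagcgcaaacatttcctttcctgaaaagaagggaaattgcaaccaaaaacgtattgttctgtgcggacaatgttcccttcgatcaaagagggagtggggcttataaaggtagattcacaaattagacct
The Odc1 and Smox windows held 4 and 6 GC boxes, and the printed window of Slc7a1, the third falling gene, held none. The Sat1 window held 2, and the Gatm window held 2 CCAAT boxes and no GC box. None of these matches overlapped another. Among all 32851 RefSeq promoter windows of 250 bases, 32.7% held a GC box and 33.8% a CCAAT box. The printed Slc7a1 window held 1 match to TTCNNNGAA, 146 bases before the start, a motif present in 7.02% of all windows. A second Slc7a1 window, at a start 7089 bases upstream, is not printed. It held 1 GC box, 36 bases before that start, no match to either STAT spacing, and 62.4% G and C. No window of the 6 genes held TTCNNNNGAA, the half-site spacing usually given for STAT6, and 5.85% of all windows did. The G and C content was 80.0% before Odc1, 68.0% before Smox, 59.6% before Sat1, 59.2% before Gatm and 50% in the printed Slc7a1 window. A match is a description of these letters and not a binding site, and a missing match says nothing of the factor.

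Values are in TPM, a transcript abundance scaled for transcript length and for depth, so that levels of different genes can be set side by side. The libraries held 16913185 to 19019896 reads in genes. M0 replicate 2 stood apart from the other M0 libraries, with a chi-square of read counts, divided by its degrees of freedom, of 9.52 and 10.7 against them. That value was 2.31 between M0 replicates 1 and 3 and 1.54 to 1.73 between M2 libraries. All 8 macrophage markers examined were tested, and their summed level was 16448 to 17594 TPM in M0 and 15452 to 15830 TPM in M2. Summed neutrophil markers stood at 36.9 to 44.5 TPM in M0 and 34.0 to 42.3 TPM in M2, with 5 of 8 tested. B cell markers summed to 1.85 to 1.98 and 1.10 to 1.58 TPM (1 of 5 tested), and T and NK cell markers to 0.187 to 0.239 and 0.0880 to 0.218 TPM (0 of 6 tested, Cd8a at 0). Mast cell and basophil markers summed to 0.393 to 0.497 and 0.262 to 0.302 TPM (0 of 6 tested, Mcpt8 at 0), and stromal markers to 9.49 to 10.1 and 7.34 to 7.95 TPM (2 of 6 tested). Dendritic cell markers summed to 0.363 to 0.551 and 1.22 to 1.45 TPM (0 of 5 tested), and eosinophil markers to 1.54 to 1.59 and 2.40 to 2.84 TPM (1 of 4 tested, Prg3 and Epx at 0). Within the dendritic list Zbtb46 had 0.0770 ± 0.0484 and 1.06 ± 0.0641 TPM, and Clec9a 0.0387 and 0.105 TPM. Mean Xcr1, Siglech and Flt3 were lower in M2 (0.103, 0.0453 and 0.0407 TPM) than in M0 (0.240, 0.0730 and 0.0550 TPM). Endothelial markers summed to 3.62 to 4.13 and 10.6 to 10.9 TPM (2 of 4 tested, Tek at 0). Within that list Pecam1 had 0.407 ± 0.0386 and 10.4 ± 0.198 TPM. Kdr had 2.78 ± 0.249 and 0.218 ± 0.0370 TPM and Cdh5 0.731 ± 0.0311 and 0.110 ± 0.0359 TPM, both lower in M2. The M0 sum was thus mostly Kdr, and the higher M2 sum mostly Pecam1. The platelet factor gene Pf4 alone, a megakaryocyte marker, stood at 703 to 859 TPM in M0 and 406 to 425 TPM in M2. The part of these levels in the results below was not tested.

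The comparison of M2 with M0 asks how transcripts of these genes differ after 4 h of IL-4. Of the 10 genes, 5 rose (Arg1, Slc7a2, Gatm, Sat1, Arg2), 4 fell (Smox, Slc7a1, Azin1, Odc1) and Ass1 did not pass, by limma-trend at a Benjamini-Hochberg adjusted p under 0.05. Over all 11235 genes tested, 62.9% passed, 17.7% rising and 45.3% falling. A rise of at least 1 on the log2 scale was seen for 4 of the genes and in 3.35% of all genes, and a fall of that size for Smox and in 4.61% of all genes. The M0 and M2 libraries did not overlap for the same 9 genes, 5 with all M2 libraries above M0 and 4 with all below. Over all genes tested the libraries did not overlap for 69.4%, with M2 above for 19.6% and below for 49.8%. In bulk RNA, fewer cells that express a gene and less of its RNA per cell cannot be told apart.

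The median log2 fold change over all genes tested was -0.15, and dividing each library by its median-ratio factor moved it by 0.16 to 0.00. After that scaling 6 of the 10 genes rose and the same 4 fell, while over all genes 56.9% passed, 28.8% rising and 28.2% falling. The median of the 10 genes was 0.48 on the log2 scale as deposited and 0.61 after scaling, and it falls between genes that moved in opposite directions. Among the 11235 genes ordered by fitted log2 fold change, Arg1 was number 3 and Slc7a2 number 15 counted from the largest rise, followed by Gatm at 134, Sat1 at 153 and Arg2 at 485. Counted from the largest fall, Smox was number 450, Slc7a1 752, Azin1 828 and Odc1 1206.

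**Figure D1:**
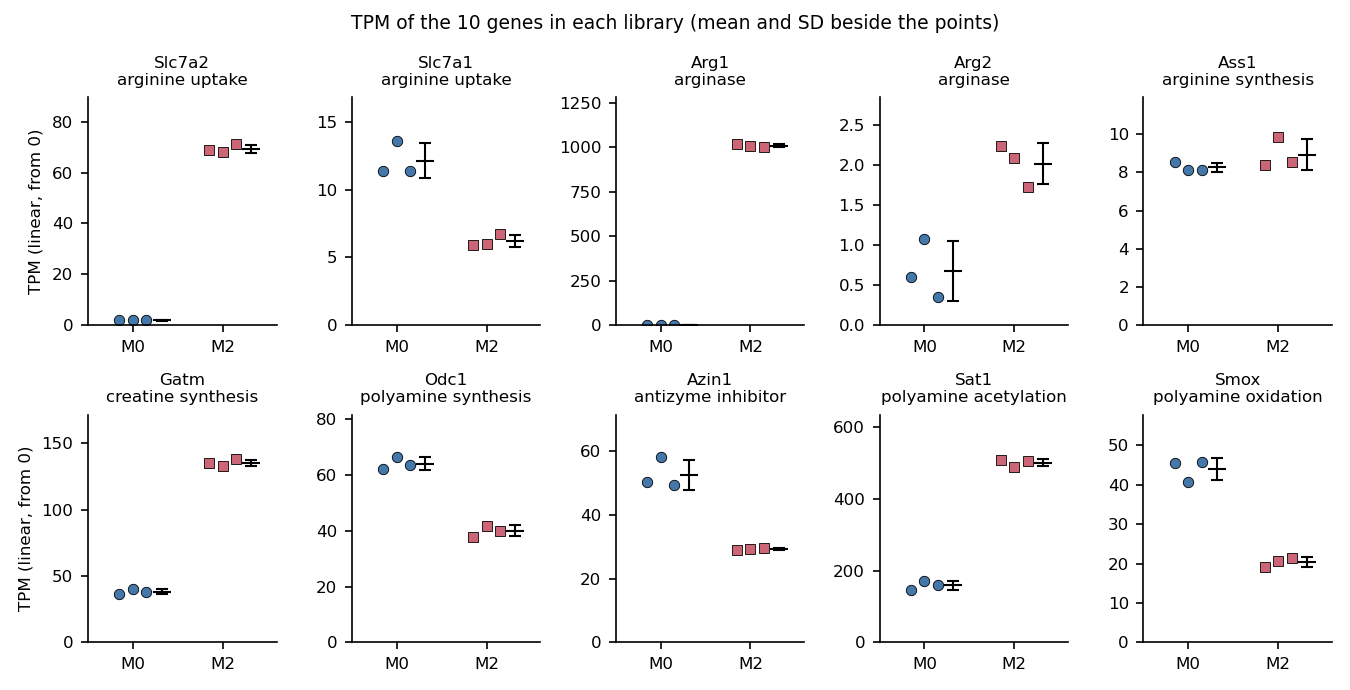
TPM (linear axes from 0) of each of the 10 genes in the 3 M0 libraries (circles) and 3 M2 libraries (squares), with the mean and SD of each group beside the points. The groups are separate for every gene shown except Ass1, whose M0 libraries (8.11 to 8.55 TPM) and M2 libraries (8.38 to 9.84 TPM) overlap.

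The pair of arginine carriers exchanged places. Slc7a2, the carrier gene known for its induction in activated macrophages (transcript NM_001044740, mm10 chromosome 8, positions 40862367 to 40922070, plus strand, 12 exons), had 1.85, 2.19 and 1.87 TPM in M0 replicates 1, 2 and 3. In M2 replicates 1, 2 and 3 it had 69.1, 68.0 and 71.2 TPM. The lowest M2 library was thus far above the highest M0 library. The means were 1.97 ± 0.194 and 69.4 ± 1.62 TPM (SD, n = 3 each), and the fitted log2 fold change was 4.57 (SE 0.07, limma adjusted p = 1.1e-11). Its place by abundance among all genes moved from between 10129 and 10301 in the M0 libraries to between 1287 and 1358 in the M2 libraries.

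Slc7a1, which encodes the carrier present in most cell types (NM_001301424, chromosome 5, positions 148327410 to 148392815, minus strand, 13 exons), had 11.4, 13.6 and 11.4 TPM in the M0 libraries. In the M2 libraries it had 5.90, 5.98 and 6.72 TPM, all below M0. Its log2 fold change was -0.87 (SE 0.08, limma adjusted p = 9.8e-06), and -0.71 after median scaling. RefSeq gives a second start for this gene 7089 bases upstream of the transcript that was counted, and the table holds no separate value for it.

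Slc7a2 made up 14%, 13.9% and 14.1% of the summed TPM of both carriers in the M0 libraries and 92.1%, 91.9% and 91.4% in the M2 libraries. The share was 14 ± 0.0753% in M0 and 91.8 ± 0.388% in M2 (SD, n = 3 each; two-sided exact permutation test p = 0.10, the smallest that 3 against 3 libraries can give, and 0.10 adjusted over 3 ratios). M0 replicate 2 had the highest level of both genes among the M0 libraries, while its share differed little from theirs. The sum of both was 14.1 ± 1.44 TPM in M0 and 75.6 ± 2.04 TPM in M2, a ratio of 5.36 that was computed after the values were seen and not tested.

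Both arginase transcripts rose from low M0 levels, Arg1 to among the most abundant transcripts of the M2 libraries and Arg2 to about 2 TPM. Arg1, the cytosolic enzyme (NM_007482, chromosome 10, positions 24915207 to 24927470, minus strand, 8 exons), had 1.87, 1.22 and 1.57 TPM in the M0 libraries, which corresponds to 27 to 42 reads. The M2 libraries held 1016, 1007 and 1002 TPM, or 21830 to 24094 reads. Arg1 stood between 10283 and 10867 in order of abundance in M0 and at 46 or 47 in the M2 libraries. The M2 libraries varied by 0.733% (coefficient of variation), close to the 0.664% given by read counting alone. Arg1 had a log2 fold change of 8.63 (SE 0.08, limma adjusted p = 4.9e-13).

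Arg2, the mitochondrial arginase (NM_009705, chromosome 12, positions 79130788 to 79156301, plus strand, 8 exons), was a low transcript with 0.604, 1.08 and 0.348 TPM in M0. The M2 libraries had 2.23, 2.08 and 1.73 TPM, all above M0. It reached the minimum of 1 TPM in 3 libraries through the M2 group, so the choice of testing it is not independent of its rise. The counts behind it were 43 reads over the M0 group and 130 over the M2 group. The log2 fold change was 0.87 (SE 0.15, limma adjusted p = 5.5e-04) with the pseudocount of 1, 0.31 with a pseudocount of 5, 1.55 with 0.1 and 1.70 by limma-voom on reads. The last 285 of its 1407 exon bases overlap Vti1b, a SNARE gene on the opposite strand with 101 ± 6.05 and 93.3 ± 2.86 TPM in M0 and M2. The strand setting of the counting is not given in the sources used here, so reads of the 2 genes in that stretch cannot be told apart.

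Arg1 made up 75.6%, 53.0% and 81.9% of the summed arginase TPM in M0 replicates 1, 2 and 3, and 99.8% in each M2 library (two-sided exact permutation test p = 0.10 for n = 3 against 3, adjusted 0.10). The lowest share, in M0 replicate 2, goes with the highest Arg2 and lowest Arg1 level of the M0 libraries. The M2 minus M0 difference was 29.6 percentage points, and 21.1 without M0 replicate 2.

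Ass1, argininosuccinate synthase, which begins the remaking of arginine from citrulline (NM_007494, chromosome 2, positions 31470270 to 31520670, plus strand, 16 exons), had 8.55, 8.11 and 8.11 TPM in M0. It had 8.38, 9.84 and 8.55 TPM in M2, and the groups overlapped. The log2 fold change was 0.10 with a 95% interval from -0.07 to 0.27 (limma adjusted p = 0.282). It passed after median scaling (0.25, adjusted p = 0.0158) and in the fit to log2-scale values of the authors (0.22, adjusted p = 0.0239), so a small rise depends on the scale used. An entry named Gm5424 lies inside the same span and covers 1552 of the 1613 exon bases, with 8.34 ± 0.0742 and 9.0 ± 0.930 TPM, so that reads in the shared bases bear on both entries.

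Gatm, the amidinotransferase that moves the amidino group of arginine to glycine in the first step of creatine synthesis (NM_025961, chromosome 2, positions 122594473 to 122611277, minus strand, 9 exons), had 36.4, 40.2 and 38.3 TPM in M0. It had 135, 133 and 138 TPM in M2, more than 3 times the M0 level in each library. This was a log2 fold change of 1.80 (SE 0.05, limma adjusted p = 6.8e-10). Gamt, the enzyme of the following step, stood at 23.9 ± 2.20 and 25.7 ± 1.71 TPM and did not pass (0.10, adjusted p = 0.256), though it did after median scaling (0.27, adjusted p = 0.0179). The creatine transporter gene Slc6a8 fell from 174 ± 5.16 to 100.1 ± 1.77 TPM.

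Ornithine decarboxylase and its antizyme inhibitor were both lower in M2. Odc1, the rate-limiting enzyme of polyamine synthesis (NM_013614, chromosome 12, positions 17544873 to 17551502, plus strand, 12 exons), had 62.1, 66.5 and 63.4 TPM in M0. The M2 libraries had 37.9, 41.8 and 40 TPM, all below M0. The log2 fold change was -0.67 (SE 0.05, limma adjusted p = 1.8e-06), and -0.50 after median scaling. Its enzyme product is marked for destruction by antizyme, which the Azin1 protein binds and holds off.

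Azin1 (NM_018745, chromosome 15, positions 38487430 to 38519266, minus strand, 12 exons) had 50.2, 58.1 and 49.3 TPM in M0. It had 28.9, 29.3 and 29.5 TPM in M2, where the libraries lay within 1 TPM of each other. Azin1 had a log2 fold change of -0.82 (SE 0.06, limma adjusted p = 1.7e-06), and -0.65 after scaling. The ratio of Odc1 to Azin1 TPM was 1.24, 1.15 and 1.29 in M0 and 1.31, 1.43 and 1.36 in M2, so the 2 transcripts moved nearly in step. The difference of 0.142 had a two-sided exact permutation p of 0.10 (n = 3 against 3, adjusted 0.10).

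The enzymes that take polyamines apart moved in opposite directions. Sat1, the spermidine and spermine acetyltransferase (NM_009121, chromosome X, positions 155213126 to 155216449, minus strand, 6 exons), had 147, 172 and 159 TPM in M0. The M2 libraries had 508, 489 and 505 TPM. It was the second most abundant of the 10 transcripts in M2, after Arg1, and the most abundant in M0. The log2 fold change was 1.65 (SE 0.05, limma adjusted p = 2.7e-09).

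Smox, which oxidises spermine back to spermidine (NM_001177839, chromosome 2, positions 131491862 to 131525183, plus strand, 6 exons), had 45.4, 40.7 and 45.7 TPM in M0. It had 19.1, 20.7 and 21.4 TPM in M2, again with no overlap. Its log2 fold change of -1.07 (SE 0.06, limma adjusted p = 2.5e-07), or -0.90 after scaling, was the lowest of the 10. The TPM ratio of Sat1 to Odc1 was 2.37, 2.58 and 2.52 in the M0 libraries and 13.4, 11.7 and 12.6 in the M2 libraries. The ratio of Sat1 to Smox was 3.24, 4.22 and 3.49 in M0 and 26.6, 23.6 and 23.6 in M2. Both ratios were computed after the values were seen and were not tested.

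**Figure D2:**
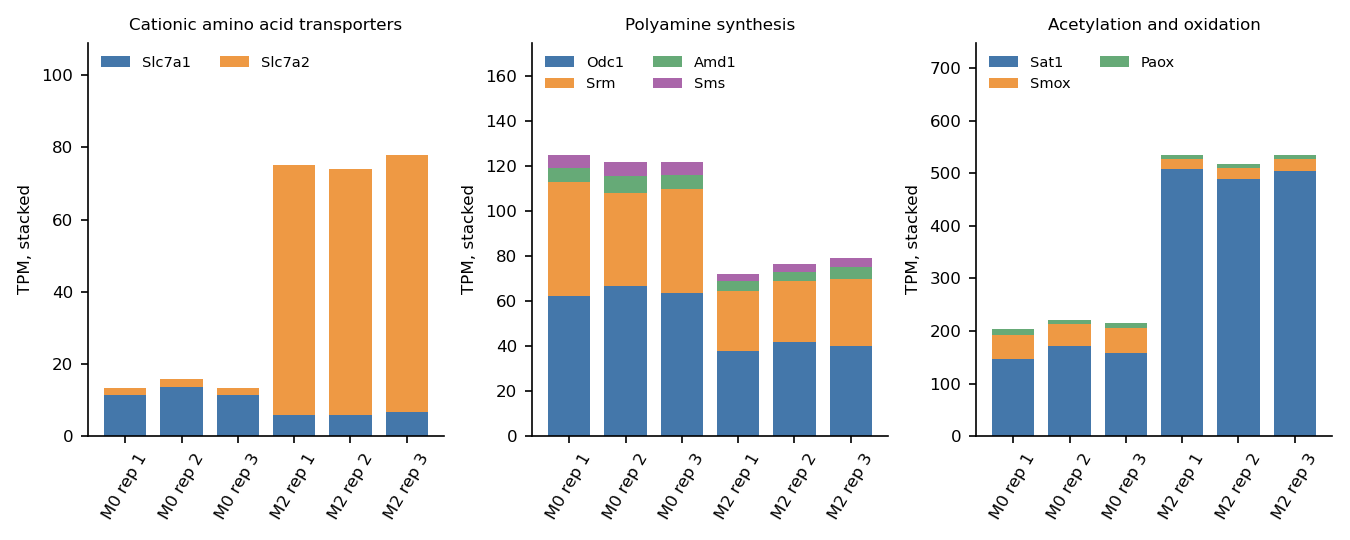
Stacked TPM per library (linear axes from 0) of the carriers Slc7a1 and Slc7a2, of the polyamine synthesis genes Odc1, Srm, Amd1 and Sms, and of Sat1, Smox and Paox. In M2 the carrier sum is higher and mostly Slc7a2, the synthesis sum is lower (76.0 ± 3.76 against 123 ± 1.69 TPM), and Sat1 makes up most of the last panel in every library.

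In order of level, the 10 transcripts in M0 ran Sat1 (159.5 ± 12.2 TPM), Odc1 (64.0 ± 2.29), Azin1 (52.5 ± 4.83), Smox (43.9 ± 2.84), Gatm (38.3 ± 1.91), Slc7a1 (12.1 ± 1.25), Ass1 (8.26 ± 0.253), Slc7a2 (1.97 ± 0.194), Arg1 (1.55 ± 0.328) and Arg2 (0.677 ± 0.371). The M0 libraries of neighbouring genes in this order were separate except for those of Slc7a2 and Arg1, whose ranges were 1.85 to 2.19 and 1.22 to 1.87 TPM. In M2 the order was Arg1 (1009 ± 7.40 TPM), Sat1 (501 ± 10.1), Gatm (135 ± 2.44), Slc7a2 (69.4 ± 1.62), Odc1 (39.9 ± 1.97), Azin1 (29.3 ± 0.305), Smox (20.4 ± 1.18), Ass1 (8.92 ± 0.795), Slc7a1 (6.20 ± 0.450) and Arg2 (2.02 ± 0.256), with no overlap between neighbours. The sum of all 10 was 383 ± 19.1 TPM in M0 and 1821 ± 12.1 TPM in M2. Arg1 made up 0.409 ± 0.105% of that sum in M0 and 55.4 ± 0.425% in M2.

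M0 replicate 2 was the highest of the M0 libraries for 7 of the 10 genes (Arg2, Slc7a2, Slc7a1, Odc1, Sat1, Gatm and Azin1) and the lowest for Arg1 and Smox. Its largest departures from the mean of the other M0 libraries, on the log2 scale of TPM plus 1, were 0.50 for Arg2, -0.29 for Arg1, 0.23 for Slc7a1 and 0.22 for Azin1, with a median of 0.06 over all genes tested. Azin1 varied by 9.19% in M0 against 1.62% from counting, and by 1.04% in M2 against 2.14%. Without M0 replicate 2 the same 9 genes passed, and over all genes tested 7276 passed, against 7071 with every library. The log2 fold changes of the rising genes were 8.54 for Arg1, 4.62 for Slc7a2, 1.83 for Gatm, 1.70 for Sat1 and 1.03 for Arg2. Those of the falling genes were then -1.12 for Smox, -0.79 for Slc7a1, -0.75 for Azin1 and -0.64 for Odc1.

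**Figure D3:**
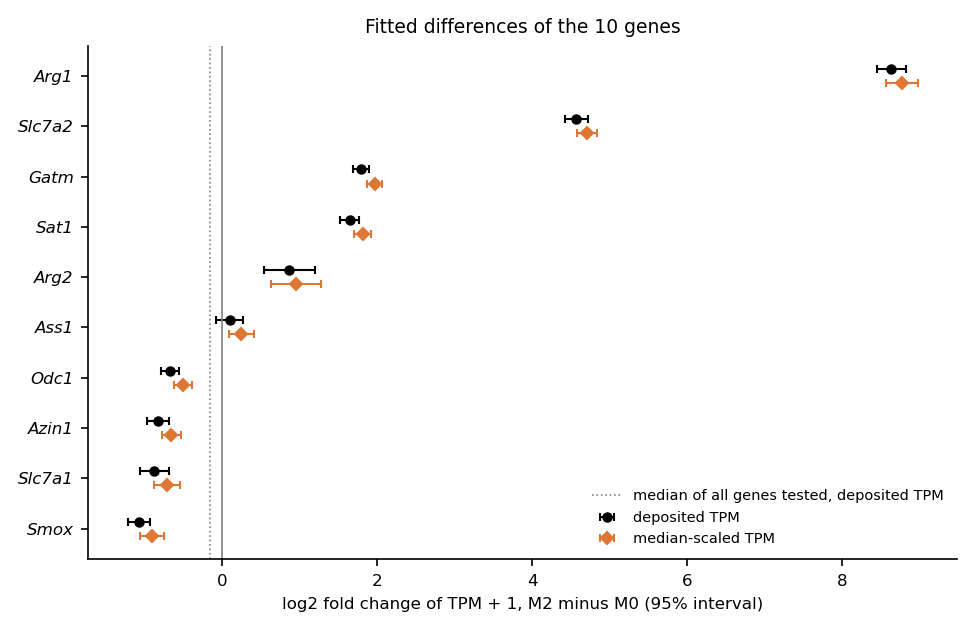
Fitted log2 fold change of TPM plus 1 (M2 minus M0) with 95% intervals, from deposited TPM (circles) and after median scaling (diamonds), with the median of all genes tested dotted at -0.15. Scaling moves each gene to the right, and Ass1 is the gene whose interval crosses 0 on one scale and not on the other.

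The authors' deposited table gave the same direction for all 10 genes, with log2 fold changes of 9.30 for Arg1, 5.28 for Slc7a2, 1.99 for Gatm, 1.81 for Sat1 and 1.5 for Arg2. For the others the authors' deposited table listed 0.28 for Ass1 (adjusted p = 0.0872), -0.51 for Odc1, -0.67 for Azin1, -0.79 for Slc7a1 and -0.89 for Smox.

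Around these genes, 61 others of arginine and polyamine metabolism were listed by role, of which 48 were tested. Of those, 9 rose, 27 fell and 12 did not pass, and after median scaling 12 rose, 20 fell and 16 did not pass. Without Amd2, an entry on the Amd1 locus, 26 fell as deposited and 19 after scaling. Their median log2 fold change was -0.26, against -0.15 for all genes tested, and -0.11 against 0.00 after scaling. These counts stand beside the 17.7% rising and 45.3% falling over all genes tested, or 28.8% and 28.2% after scaling.

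Of 5 tested genes of other arginine carriers, 1 rose, 3 fell and 1 did not pass, as deposited and after median scaling. Over all genes tested, 17.7% rose and 45.3% fell, or 28.8% and 28.2% after scaling. Slc7a7, which with Slc3a2 forms a carrier that exports cationic amino acids, fell from 18.7 ± 0.838 to 8.00 ± 0.703 TPM (log2 fold change -1.13, limma adjusted p = 4.3e-07). Its partner Slc3a2 fell from 251 ± 7.65 to 189 ± 4.66 TPM (-0.41). Slc38a9, the arginine sensor of the lysosome that acts on mTORC1, rose from 4.45 ± 0.617 to 9.95 ± 0.211 TPM (1.01, limma adjusted p = 4.0e-06). Pqlc2, a lysosomal exporter of cationic amino acids, had 38.0 ± 2.46 and 36.8 ± 1.25 TPM and did not pass.

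The mitochondrial steps of the urea cycle had few or no reads. Otc and Cps1, its mitochondrial enzymes, had no read in any library, and Nags had 4 reads over the M0 group and 3 over the M2 group. Asl, which completes arginine synthesis after Ass1, stood at 38.3 ± 1.68 and 36.6 ± 1.53 TPM (log2 fold change -0.07, limma adjusted p = 0.313). Slc25a15, the mitochondrial ornithine carrier, had 3.71 ± 0.289 and 2.94 ± 0.189 TPM (-0.26, adjusted p = 0.0224). Its call ended after median scaling (adjusted p = 0.209) and with the log2-scale values of the authors (0.176). It also ended without M0 replicate 3, M2 replicate 1 or M2 replicate 2 (0.0625, 0.0909 and 0.0629).

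Nos2, the inducible nitric oxide synthase that competes with arginase for arginine, had 4 reads over the M0 group and 11 over the M2 group and was not tested. Of the 2 tested genes of this branch both fell as deposited and 1 after median scaling, where 45.3% and 28.2% of all genes tested fell. Gch1, which makes the cofactor of nitric oxide synthase, fell from 18.2 ± 2.22 to 9.44 ± 0.723 TPM (log2 fold change -0.88, limma adjusted p = 1.4e-05). Ddah2, which degrades methylated arginines, had -0.26 (adjusted p = 0.0310), a call that ended after scaling (0.335) and without M0 replicate 1 or 3 or M2 replicate 1 or 3 (0.106, 0.0934, 0.0910 and 0.0985). The Ddah2 call also ended without the filter on low values (0.0601), by limma-voom (0.127) and with the log2-scale values of the authors (0.387).

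Of 6 tested genes between ornithine and proline, 3 rose, 2 fell and 1 did not pass. After median scaling 3 rose, 1 fell and 2 did not pass. Over all genes tested, 17.7% rose and 45.3% fell as deposited, or 28.8% and 28.2% after scaling. Oat, the mitochondrial aminotransferase that takes ornithine towards proline and glutamate, rose from 51.3 ± 1.53 to 58.4 ± 0.673 TPM (log2 fold change 0.18, limma adjusted p = 0.00453). Aldh4a1, of proline breakdown, rose from 9.83 ± 0.339 to 14.3 ± 1.35 TPM (0.49). Aldh18a1, which starts proline synthesis from glutamate, fell from 12.0 ± 1.23 to 7.23 ± 0.431 TPM (-0.65).

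Beyond Odc1, the polyamine synthesis genes Srm, Sms and Amd1 fell, as deposited and after median scaling, where 45.3% and 28.2% of all genes tested fell. The entry Amd2 lies on the same locus as Amd1 (chromosome 10, positions 40287465 to 40302186 within 40287458 to 40302188), so the 4 listed entries stand for 3 genes. Srm, spermidine synthase, fell from 46.2 ± 4.73 to 27.7 ± 1.84 TPM (log2 fold change -0.72, limma adjusted p = 2.0e-05), and Sms, spermine synthase, from 6.04 ± 0.464 to 3.75 ± 0.613 TPM (-0.57, adjusted p = 7.2e-04). Amd1, the S-adenosylmethionine decarboxylase that supplies the aminopropyl groups, fell from 6.68 ± 0.857 to 4.63 ± 0.424 TPM (-0.44). Amd2 had 6.70 ± 0.847 and 4.65 ± 0.425 TPM, which is not separate evidence.

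Azin2, which encodes a second antizyme inhibitor, moved against Azin1. The M0 libraries had 1.42, 1.24 and 1.52 TPM and the M2 libraries 8.90, 8.53 and 9.10 TPM, with a fitted difference of 2.04 on the log2 scale (SE 0.08, limma adjusted p = 9.9e-09). Even so its M2 level stayed below that of Azin1. Among the antizymes, Oaz2 rose from 17.2 ± 0.799 to 20.5 ± 0.936 TPM (0.24, adjusted p = 0.00594). Oaz1, the most abundant, stood at 220.0 ± 7.85 and 200.1 ± 5.03 TPM, and its direction depends on the scale. The fitted difference was -0.14 (limma adjusted p = 0.0163) as deposited, 0.04 after median scaling and 0.03 from the log2-scale values of the authors. The Oaz1 call also ended by limma-voom (adjusted p = 0.157) and without M0 replicate 3, M2 replicate 1 or M2 replicate 3 (0.0502, 0.0840 and 0.0564). Its reads are shared with the pseudogene entry Oaz1-ps at 235 ± 10.1 and 213 ± 4.85 TPM. The TPM ratio of Oaz1 to Odc1 was 3.56, 3.18 and 3.58 in M0 and 5.14, 4.90 and 5.0 in M2.

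Beyond Sat1 and Smox, 4 genes of polyamine turnover and transport were tested. Of these 1 passed as higher in M2 (Sat2), 1 as lower (Paox) and neither Atp13a2 nor Atp13a3 passed. After median scaling 1 rose, 0 fell and 3 did not pass. The shares over all genes tested were 17.7% rising and 45.3% falling, or 28.8% and 28.2% after scaling. Paox, which oxidises acetylated polyamines, had 10.6 ± 1.61 and 8.04 ± 0.324 TPM (log2 fold change -0.34, limma adjusted p = 0.0116). Its call ended after scaling (0.160) and with the log2-scale values of the authors (0.256). Sat2, a relative of Sat1, was low at 0.981, 0.744 and 0.525 TPM in the M0 libraries and 1.2, 1.17 and 1.07 TPM in the M2 libraries. Like Arg2 it reached the filter only through the M2 group, so its call (0.30, limma adjusted p = 0.0352) is not independent of that filter. The call ended without the filter (adjusted p = 0.0579), by limma-voom (0.0946), with the log2-scale values of the authors (0.0691), and without M0 replicate 2 (0.0686) or 3 (0.137). The transporter genes Atp13a2 and Atp13a3, whose products move polyamines out of lysosomes and endosomes, had log2 fold changes of -0.08 each. Atp13a3 did not pass, and Atp13a2 passed without M0 replicate 2 (-0.12, adjusted p = 0.0101).

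**Figure D4:**
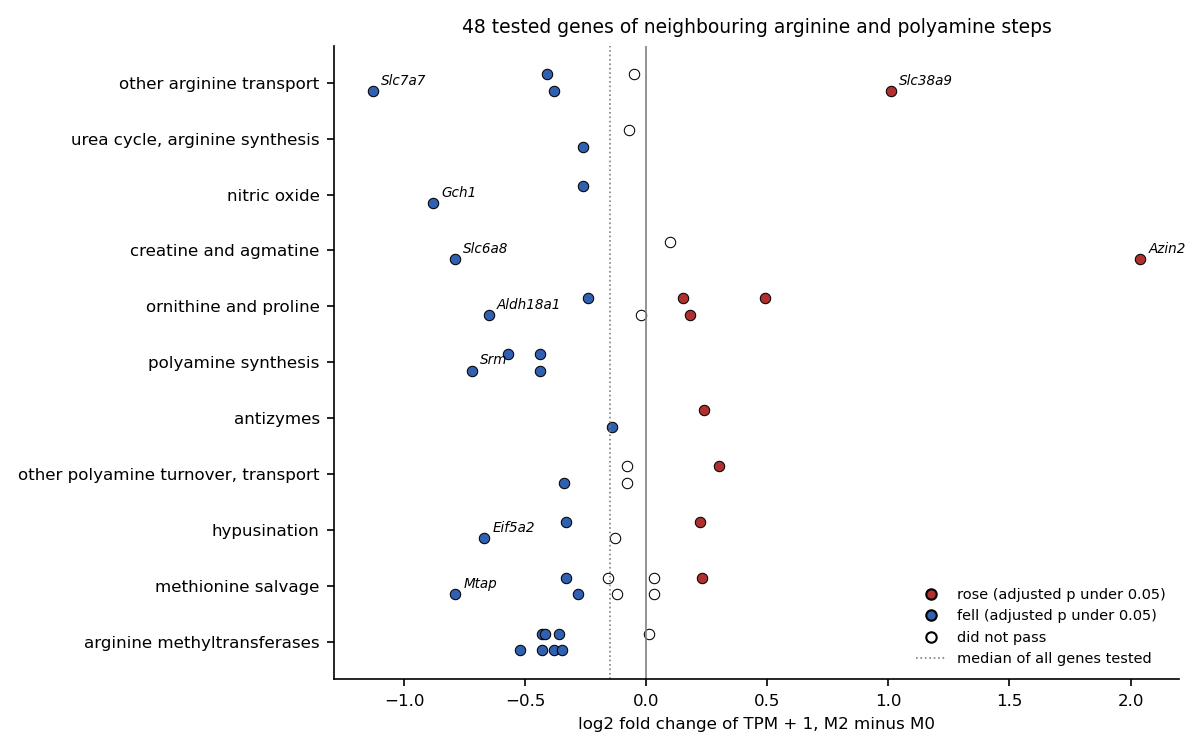
Log2 fold change of TPM plus 1 (M2 minus M0) of the 48 other tested genes, by role, with filled points for genes that passed and the median of all genes tested dotted at -0.15. Azin2 (2.04) and Slc38a9 (1.01) lie far to the right and Slc7a7 (-1.13) far to the left, while every point of polyamine synthesis lies below the dotted line.

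The genes whose profile over the 6 libraries was closest to that of Arg1, by Euclidean distance between log2 values of TPM plus 1 centred on each gene's mean, were Rnase2a (0.30), Chil3 (0.84), Ear2 (1.56), Ear3 (1.66) and Ear12 (1.66). Without any read in M0, Rnase2a reached 370.3 ± 10.8 TPM in M2, and Chil3 had 3.61 ± 0.128 and 2900 ± 65.5 TPM. Ear3 and Ear12 share positions 44102887 to 44103357 of chromosome 14, inside Ear2, so these 3 entries share a locus. Closest to Slc7a2 were Pdcd1lg2 (0.17), Socs1 (0.33), Il4i1 (0.38), Msx3 (0.38) and Cish (0.52). Socs1 had 4.71 ± 0.504 and 138 ± 4.29 TPM, whereas Pdcd1lg2 and Msx3 had 1 read each over the M0 group. For genes so low in M0 the distance depends on the pseudocount, and it is a description with no test. Rnase2a, Pdcd1lg2, Msx3, Cish and Il4i1 reached the minimum of 1 TPM in 3 libraries through the M2 group. Their place among the genes compared is therefore not independent of their rise.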

How the data were processed

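Poly(A) RNA of 3 M0 and 3 M2 libraries was sequenced, each prepared from 100 ng, per the labels' protocols. The submitters' processing notes name bcl2fastq, STAR, HOMER 4.11.1 and DESeq2 with mm10, and per the file headers HOMER counted exon reads of 1 transcript per gene. The authors deposited TPM per library, which sum to 542749 to 553186 over the 25124 genes. The authors also deposited log2-scale values per library, a log2 fold change and p-values of the comparison, and the header does not name the transformation. In the table, 3 entries split by commas were realigned. TPM times length gave whole reads within 0.1 read for 99.8% to 99.9% of nonzero values, 89.8% to 90.9% of the tag totals in the headers, and counting errors were taken from these reads.

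Groups were compared by limma-trend (robust, two-sided, group only; R 4.3.3 with limma 3.58.1) on log2 of TPM plus a pseudocount of 1, for genes with at least 1 TPM in at least 3 libraries, with Benjamini-Hochberg adjustment over all 11235. It was tested on simulated data in which only a small part of the genes changed. Far more genes differed here, so the simulation does not bear on the choice between deposited and median-scaled values. The 3 ratios between genes had exact permutation tests (scipy 1.17.1). Alternatives were pseudocounts of 0.1 and 5, no filter, at least 50 reads in 3 libraries, median scaling, limma-voom on the recovered reads, the deposited log2-scale values in place of TPM, a replicate block, and each library left out. The 10 genes and all lists were chosen with earlier results of these data known. Named genes were the 10, Nos2, at least the 2 largest called changes of each role list, and the 5 genes nearest to Arg1 and to Slc7a2. One further marker list is not reported here. Promoters came from RefSeq (GRCm38.p6) and exon numbers from GENCODE M21 by RefSeq identifier. Figures used matplotlib 3.10.9.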

Additional observations from a re-analysis of the deposited data

How the results depend on the processing

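Over 14 alternatives, the 9 genes that passed kept their direction and call wherever they were tested, and Arg2 was not tested with at least 50 reads in 3 libraries. Their log2 fold changes ranged from 7.27 to 9.40 for Arg1, 3.42 to 5.19 for Slc7a2, 1.70 to 1.97 for Gatm, 1.59 to 1.82 for Sat1 and 0.31 to 1.70 for Arg2, the low ends of Arg1, Slc7a2 and Arg2 coming with a pseudocount of 5. They ranged from -1.12 to -0.82 for Smox, -0.96 to -0.61 for Slc7a1, -0.86 to -0.64 for Azin1 and -0.70 to -0.48 for Odc1. Ass1 ranged from 0.03 to 0.25 and passed in 2 alternatives. Over all genes, 1983 rose and 5088 fell as deposited, 3234 and 3163 after median scaling, and 3318 and 3323 on the authors' log2-scale values; both alternatives centre the median change at 0.00. Oaz1 turned to 0.04 and 0.03 in these. Of 668 comparisons for the 48 other genes, 608 kept their call, 49 lost it, 9 gained it and 2 turned direction. With the replicate number as a block, 6916 genes passed (7071 without) and 9 of the 10. Deviations of same-numbered libraries did not correlate (0.00, -0.00 and -0.04). That cannot tell whether the numbers are a pairing, because the sources used here do not give the origin of the libraries. Under the block 2 of the 48 other genes lost their call. The ratios kept their direction without each library (differences of 21.1 to 35.5 points for the Arg1 share, 77.7 to 78.1 for the Slc7a2 share and 0.104 to 0.174 for Odc1 to Azin1), in a design whose p cannot go below 0.10. Depth limits Arg2, Nos2 and Sat2, which rest on few reads.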

Other observations

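Of the 8 tested arginine methyltransferases, which methylate arginine residues of proteins, 7 fell and 1 did not pass, as deposited and after median scaling. Prmt5 fell from 23.5 ± 0.446 to 16.1 ± 0.780 TPM (SD, n = 3 each; log2 fold change -0.52, limma adjusted p = 2.1e-05) and Carm1 from 22.1 ± 0.486 to 16.1 ± 1.01 TPM (-0.43). By contrast Prmt9 stood at 12.4 ± 1.90 and 12.4 ± 0.565 TPM. Over all genes tested 45.3% fell, or 28.2% after scaling.

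Spermidine is also the donor for hypusine, a modified lysine of the translation factor eIF5A. Of 4 tested hypusination genes, 1 rose, 2 fell and 1 did not pass as deposited, and 1 rose, 1 fell and 2 did not pass after scaling. Over all genes tested, 17.7% rose and 45.3% fell as deposited, and 28.8% rose and 28.2% fell after scaling. Eif5a rose from 498 ± 16.0 to 580.0 ± 3.09 TPM (0.22, limma adjusted p = 4.1e-04), whereas its relative Eif5a2 fell from 4.25 ± 0.860 to 2.29 ± 0.301 TPM (-0.67). Dohh, which completes the modification, had 57.0 ± 7.62 and 44.8 ± 1.85 TPM (-0.33, adjusted p = 0.00798). Its call ended after scaling (0.216) and with the log2-scale values of the authors (0.137). Methionine salvage recycles the by-product of spermidine and spermine synthesis. Of 8 genes listed with this route, not all of which act in it, 1 rose, 3 fell and 4 did not pass as deposited. After scaling 3 rose, 2 fell and 3 did not pass. Mtap, the first enzyme of that route, fell from 20.8 ± 1.99 to 11.6 ± 1.24 TPM (-0.79, limma adjusted p = 2.5e-05). Mat2a, which makes S-adenosylmethionine, fell from 74.3 ± 4.63 to 59.0 ± 2.0 TPM (-0.33).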
